A study of Mus musculus with 4 samples.

Results

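Cyclins, cyclin-dependent kinases (CDKs) and the small proteins that inhibit those kinases were compared between Flk-1+ cells with and without activity of a Hoxb6 reporter. The genes were taken by symbol alone. They comprised every mouse gene on the array named as a cyclin of the lettered series, a numbered CDK or an inhibitor of the Cip/Kip or Ink4 family, except for 1 Cip/Kip gene not analysed here. This gave 50 genes out of 20660 with a named probe, namely 25 cyclins, 19 CDKs and 6 inhibitors. In all, 47 of the 50 entered the comparison. Of these, 45 were well above background on all 4 arrays, and Cdk3 and Cdk15 were so on 3 arrays and entered through the Venus-positive pair.

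A CDK of the division cycle is inactive until a cyclin binds it, and each cyclin directs its kinase to a particular set of targets. D-type cyclins with Cdk4 or Cdk6 and E-type cyclins with Cdk2 carry a cell through G1 into DNA replication, and A- and B-type cyclins with Cdk2 or Cdk1 carry it through S phase, G2 and mitosis. Other cyclins and CDKs act on RNA polymerase II, on Mediator or on splicing, and of these Cdk7 with Ccnh also activates other CDKs. Ink4 proteins block Cdk4 and Cdk6, whereas Cip/Kip proteins bind a wider range of cyclin-CDK complexes. Pluripotent cells and cells of the gastrulating embryo are known for rapid division with a short G1.

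The cells were EB5 mouse embryonic stem (ES) cells carrying the Hoxb6-Venus reporter, differentiated for 6 days on a layer of OP9 stromal cells and sorted by Flk-1 antibody staining and Venus fluorescence. Every sample thus shared the line, the reporter, the feeder layer, the 6 days of culture and the Flk-1+ gate, and the groups differed in Venus alone: 2 arrays of Flk-1+ Hoxb6-Venus- cells and 2 arrays of Flk-1+ Hoxb6-Venus+ cells. The labels do not say whether the replicates were separate cultures, so a p-value here speaks to the spread among the arrays alone, and that spread may be technical. Since each array measured a pool of sorted cells, fewer cells of a type and less RNA per cell cannot be told apart.

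Each array carried 62976 spots, of which 50.7% to 53.0% of the non-control spots were well above background and 0 were saturated, and the number of arrays limits the precision. All 4 arrays were on 1 slide. Venus-negative arrays lay in column 2 and Venus-positive arrays in column 3, so the column and the fraction cannot be told apart. Levels are given as normalised log2 signal, the log2 signal minus that of the array's 75th percentile, and differences as Venus-positive minus Venus-negative. Kdr, the gene of Flk-1, was bright on every array, at 5.72 and 5.55 in Venus-negative cells against 6.06 and 6.08 in Venus-positive cells. Hoxb6 stood at 1.23 and 0.98 against 2.00 and 2.24. Of 8 endothelial markers, 7 were higher in Venus-positive cells at an unadjusted p under 0.05, with summed signals of 47.1 and 71.9 against 164 and 202 times the 75th percentile signal. Of 8 primitive streak markers, 8 were lower (51.8 and 42.9 against 15.1 and 10.8). Of 8 undifferentiated ES cell markers 3 were lower (76.6 and 50.1 against 30.4 and 20.7), and of 8 cardiac markers 3 were lower (9.10 and 6.91 against 4.21 and 2.36). Klf4 (log2 change 0.51) and Nanog (0.23) of the ES cell list and Tnnt2 (0.89) of the cardiac list were higher, short of that threshold. A sum is weighted to its brightest gene, which was Cldn5 in the endothelial list and Dppa5a in the ES cell list. None of 7 tested blood markers (49.1 and 107 against 45.6 and 56.3, with Ptprc not well above background on any array) and none of 7 tested feeder markers (54.4 and 53.0 against 49.4 and 38.8) passed that threshold in either direction. The part of these other cell types in the cyclin and CDK differences was not tested.

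No cyclin, CDK or inhibitor gene passed the test between the fractions after adjustment over all features. In limma, 0 of 47 were higher and 0 lower at a Benjamini-Hochberg adjusted p under 0.05, against 0.777% and 1.36% of all 23547 features. The lowest adjusted p among them was 0.0653, that of Ccnd2. At an unadjusted p under 0.05, 8 were higher (Ccnf, Ccng2, Cdk1, Cdk2, Cdk17, Cdk19, Cdkn1b and Cdkn2d) and 4 were lower (Ccnd2, Ccne1, Ccno and Cdk14). These counts are 17.0% and 8.51% of the genes, beside 12.3% and 11.4% of all features. The median log2 change of the 47 genes was 0.03, against 0.00 over all features, and the median size of change was 0.20 against 0.23. The share at an unadjusted p was thus close to the background in both directions together (25.5% against 23.7%), and the values that follow describe individual genes.

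The arrays of the 2 fractions did not overlap for 19 genes that were higher and 12 that were lower, which is 40.4% and 25.5% of the genes beside 29.1% and 28.4% of all features. With 2 arrays against 2, an exact two-sided permutation test of a single gene cannot go below p = 0.333. Fewer genes were higher at an unadjusted p whenever 1 array was left out, which leaves 1 array in that fraction. The share of all features in those fits is not given here. With a signal-dependent variance prior, limma called Ccnf (adjusted p = 0.0311) and Cdk17 (0.0329) higher and Ccnd2 (0.0147) and Ccne1 (0.0381) lower. These 2 in each direction are 4.26% of the genes, beside 3.10% of all features higher and 3.92% lower under that setting.

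**Figure D1:**
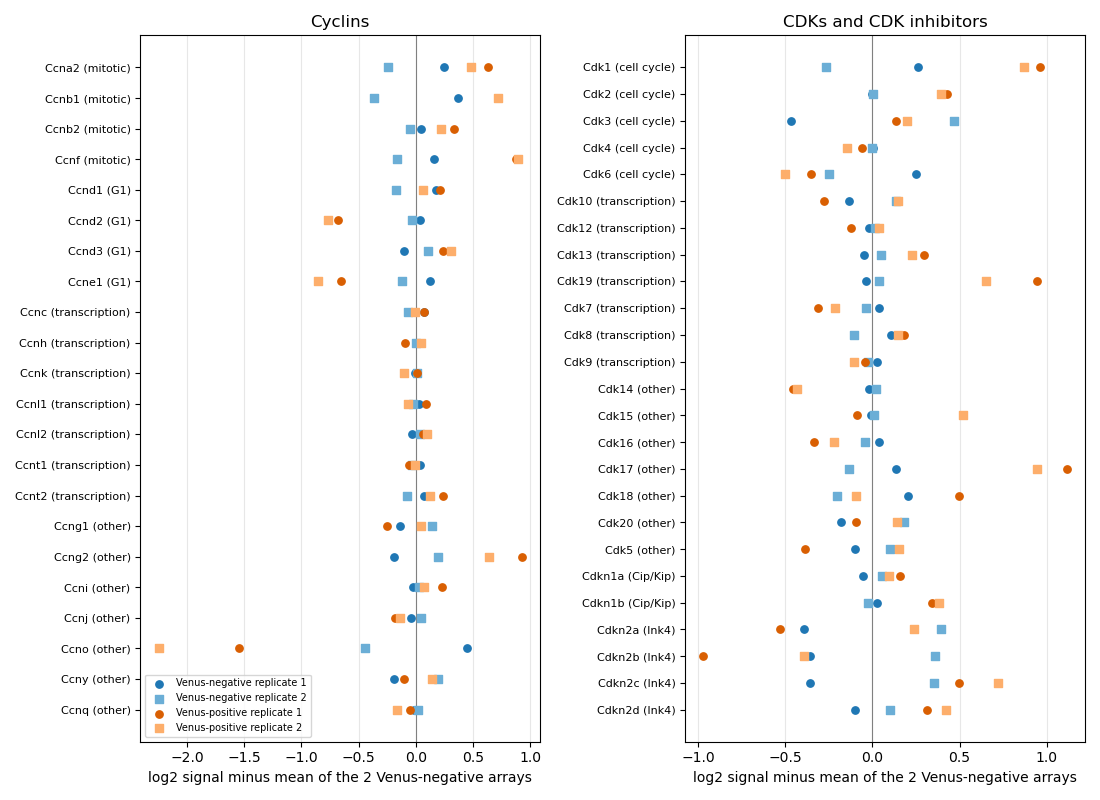
Normalised log2 signal of each of the 47 tested genes on each array, minus the mean of that gene's 2 Venus-negative arrays (x axis, log2 units), with the role in brackets; circles are replicate 1 and squares replicate 2, blue for Venus-negative and orange for Venus-positive. Ccnf, Cdk1, Cdk17 and Cdk19 lie to the right and Ccnd2, Ccne1 and Ccno to the left, while the transcription cyclins stay close to 0.

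Among cyclins of S phase and mitosis, 4 of 6 listed genes were measured. On the brightest probe of each of the 4, both Venus-positive arrays lay above both Venus-negative arrays, as they did for 29.1% of all features. On the dimmest Ccnb1 probe the fractions overlapped, at 1.17 and 0.68 in Venus-negative cells against 1.18 and 1.09 in Venus-positive cells. None of the 4 passed the adjusted test. Ccnf, an F-box cyclin that belongs to a ubiquitin ligase, had normalised log2 signals of 2.75 and 2.43 in Venus-negative cells against 3.46 and 3.48 in Venus-positive cells. The replicates of each fraction lay close together relative to that gap, and the log2 change was 0.88 ± 0.15 SE, a factor of 1.84 (limma adjusted p = 0.0819). Ccnb1, the main cyclin partner of Cdk1 in mitosis, stood at 4.40 and 3.67 against 4.75 and 4.75. Here the Venus-positive arrays coincided while the Venus-negative arrays were far apart, so that the log2 change of 0.72 ± 0.28 became 0.35 without Venus-negative replicate 2 and 1.08 without Venus-negative replicate 1 (adjusted p = 0.243 with all arrays).

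Ccna2, which acts in S phase and G2, also had a wide spread between the Venus-negative arrays, at 3.64 and 3.14 against 4.02 and 3.87. Its log2 change was 0.56 ± 0.21 (limma adjusted p = 0.232), or 0.31 without Venus-negative replicate 2. Ccnb2, the second B-type cyclin of dividing cells, had a smaller gap, at 4.73 and 4.63 against 5.02 and 4.90 (log2 change 0.28 ± 0.11, adjusted p = 0.243). All 4 genes were brighter in Venus-negative replicate 1 than in replicate 2, by a median of 0.41, whereas the Venus-positive replicates differed by a median of 0.06. Ccna1 and Ccnb3, cyclins of the germ line, were not well above background on any array and were not tested.

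Cdk1, the kinase that these cyclins activate at the entry into mitosis, had signals of 1.16 and 0.63 in Venus-negative cells against 1.86 and 1.76 in Venus-positive cells. The arrays of the fractions did not overlap, and the log2 change was 0.91 ± 0.22, a factor of 1.89 (limma adjusted p = 0.125). It was 0.65 without Venus-negative replicate 2 and 1.18 without Venus-negative replicate 1. A second, dimmer Cdk1 probe gave 0.96 ± 0.14, and its remaining probe did not meet the background criterion. Cdk2, the partner of E- and A-type cyclins, differed by less but with closely matched replicates, at 0.71 and 0.71 against 1.14 and 1.10 (log2 change 0.41 ± 0.09, a factor of 1.33, adjusted p = 0.121).

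Promoters of Cdk1 and of 3 cyclins of mitosis are shown. On the brightest probe of each, both Venus-positive arrays lay above both Venus-negative arrays. That held for 19 of the 47 tested genes, so it does not single these out, and they were picked by hand. Ccna2, which met it too, had no window. The promoter of Ccne1 is shown as 1 of the 12 genes whose arrays were separated the other way. Whether motif matches go with the direction of change was not tested. Windows run from 250 bases before to 50 bases after the annotated start and are from RefSeq, build GRCm38.p6, where 40 of the 50 genes had one. Capitals mark the cell cycle homology region (CHR) in the form TTTGAA, the CCAAT box CCAAT and the E2F site forms TTTGGCGC, TTTCGCGC and TTTCCCGC. Each was searched on both strands, with no overlap between matches in these windows. All of them lie on the minus strand of the genome and are written in the direction of transcription.
Cdk1, chr10:69352863-69353162: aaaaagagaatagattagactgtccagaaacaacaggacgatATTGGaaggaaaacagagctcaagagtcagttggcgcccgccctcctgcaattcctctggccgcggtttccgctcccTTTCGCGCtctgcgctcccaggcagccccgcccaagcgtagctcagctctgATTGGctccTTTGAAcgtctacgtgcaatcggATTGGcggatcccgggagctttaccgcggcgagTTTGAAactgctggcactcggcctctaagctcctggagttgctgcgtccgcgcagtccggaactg
Ccnb2, chr9:70421505-70421804: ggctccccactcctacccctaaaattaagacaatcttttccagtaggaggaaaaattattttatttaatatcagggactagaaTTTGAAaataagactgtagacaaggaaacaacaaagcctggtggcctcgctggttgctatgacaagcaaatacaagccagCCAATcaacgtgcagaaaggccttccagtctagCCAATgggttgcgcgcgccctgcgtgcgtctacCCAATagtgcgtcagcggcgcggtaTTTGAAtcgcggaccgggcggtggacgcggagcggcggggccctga
Ccnf, chr17:24251360-24251659: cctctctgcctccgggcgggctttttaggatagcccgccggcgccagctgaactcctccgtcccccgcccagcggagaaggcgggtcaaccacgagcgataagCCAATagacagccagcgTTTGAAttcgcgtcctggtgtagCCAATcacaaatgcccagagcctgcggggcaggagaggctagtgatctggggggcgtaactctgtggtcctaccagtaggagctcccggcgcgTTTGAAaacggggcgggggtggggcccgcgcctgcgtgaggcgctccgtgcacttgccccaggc
Ccnb1, chr13:100786437-100786736: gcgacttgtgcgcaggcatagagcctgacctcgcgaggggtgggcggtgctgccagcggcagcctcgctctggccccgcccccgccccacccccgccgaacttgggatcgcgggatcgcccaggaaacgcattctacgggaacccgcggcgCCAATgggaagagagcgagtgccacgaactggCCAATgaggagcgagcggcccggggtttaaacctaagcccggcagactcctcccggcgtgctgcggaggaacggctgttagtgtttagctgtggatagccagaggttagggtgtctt
Ccne1, chr7:38107441-38107740: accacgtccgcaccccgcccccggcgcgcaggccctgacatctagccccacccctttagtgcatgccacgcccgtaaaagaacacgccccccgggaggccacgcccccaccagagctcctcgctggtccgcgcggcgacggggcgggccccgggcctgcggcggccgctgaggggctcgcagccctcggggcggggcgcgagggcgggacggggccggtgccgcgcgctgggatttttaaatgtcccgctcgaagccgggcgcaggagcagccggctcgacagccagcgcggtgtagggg

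The CHR and the CCAAT box are known as elements of genes that peak late in the cell cycle. The windows of Cdk1, Ccnb2 and Ccnf each held 2 CHR matches, of which 1 began 15 bases before the start in Cdk1, 14 before it in Ccnf and at base 5 in Ccnb2. They also held 3, 3 and 2 CCAAT matches, and the Cdk1 window had an E2F form, TTTCGCGC, that began 131 bases before the start. The Ccnb1 window had 2 CCAAT matches and 0 matches of the CHR form TTTGAA, and the Ccne1 window had 0 of any form searched. Other forms of the CHR and of the E2F site were not searched, so these counts do not show that a window lacks the element. Among all 32851 windows of the table, 17.9% held a CHR match, 37.4% a CCAAT match, 6.95% both and 1.84% any of the E2F forms. Of the 40 cyclin, CDK and inhibitor genes with a window, 6 held a CHR match, 21 a CCAAT match, 4 both and 3 an E2F form. Cdk16, the other gene with both, had a log2 change of -0.28 ± 0.11. These are matches of letters and do not show that a factor binds there.

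Of the 4 G1 cyclins measured, Ccnd2 and Ccne1 were lower in Venus-positive cells at an unadjusted p under 0.05, as were 11.4% of all features. Ccnd1 and Ccnd3 did not reach that threshold. Ccnd2, a D-type cyclin that responds to growth signals, had signals of 5.06 and 4.99 in Venus-negative cells against 4.35 and 4.26 in Venus-positive cells. The replicates were within 0.09 of each other in each fraction, and the log2 change was -0.72 ± 0.10, a level 1.65-fold lower in Venus-positive cells (limma adjusted p = 0.0653). Leaving out any array kept it between -0.77 and -0.68. Ccne1, the cyclin that activates Cdk2 at the G1/S step, was lower by a similar amount, at 4.52 and 4.27 against 3.74 and 3.54 (log2 change -0.76 ± 0.15, adjusted p = 0.0998). Its second probe gave -0.83 ± 0.13.

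Ccnd3, another D-type cyclin, stood at 5.98 and 6.20 against 6.33 and 6.39 (log2 change 0.27 ± 0.12, limma adjusted p = 0.287, or 0.17 without Venus-negative replicate 1). Ccnd1 stood at 4.95 and 4.60 against 4.98 and 4.83, with overlapping fractions (0.14 ± 0.17, adjusted p = 0.672), and its sign turned without Venus-negative replicate 2 (-0.04). Subtracting Ccnd2 from Ccnd3 within each array gave 0.92 and 1.21 in Venus-negative cells against 1.99 and 2.13 in Venus-positive cells, a difference of 0.99 between their log2 changes, which was not tested. Ccne2 was not well above background on any array.

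Cdk4, the kinase of the D-type cyclins, differed little between the fractions. Its brightest probe gave 7.37 and 7.36 in Venus-negative cells against 7.30 and 7.22 in Venus-positive cells, a log2 change of -0.10 ± 0.10 with a 95% interval from -0.38 to 0.18. Its other probes gave -0.04 and 0.02. The related Cdk6 was dim, at -3.54 and -4.04 against -4.14 and -4.29, and its log2 change of -0.43 ± 0.21 (limma adjusted p = 0.320) was -0.18 without Venus-negative replicate 1 and -0.68 without Venus-negative replicate 2. Cdk3 is a kinase of the G0 to G1 transition in human cells, but its probe here belonged to a mouse transcript listed as noncoding. It cleared background on only 1 Venus-negative array, and its fractions overlapped (0.16 ± 0.35).

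Among the inhibitors, Cdkn1b, a Cip/Kip protein that holds back Cdk2 in resting cells, had signals of 2.02 and 1.97 in Venus-negative cells against 2.34 and 2.38 in Venus-positive cells. Its replicates were the closest matched of the inhibitors and the fractions did not overlap, with a log2 change of 0.36 ± 0.10, a factor of 1.29 (limma adjusted p = 0.144). Cdkn2d, an Ink4 protein, was higher by the same factor of 1.29, at 2.17 and 2.37 against 2.58 and 2.69 (0.37 ± 0.12, adjusted p = 0.201). Cdkn1a, the Cip/Kip gene activated by p53, lay at 3.76 and 3.87 against 3.97 and 3.90, a log2 change of 0.13 ± 0.10 (adjusted p = 0.527). It was 0.07 when Venus-negative replicate 1 was left out. A dimmer Cdkn1a probe gave 0.74 ± 0.48, and the mean over both probes 0.43.

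The remaining Ink4 genes had replicates that disagreed. Cdkn2b had signals of -0.10 and 0.62 in Venus-negative cells against -0.71 and -0.13 in Venus-positive cells (log2 change -0.68 ± 0.35, limma adjusted p = 0.329). Leaving out Venus-negative replicate 2 gave -0.32, leaving out Venus-positive replicate 1 gave -0.39, and leaving out replicate 1 of the Venus-negative cells gave -1.04. A dimmer Cdkn2b probe gave -0.92 ± 0.32, and the fractions did not overlap on either probe. Cdkn2a, which encodes an Ink4 protein and the unrelated Arf protein, stood at 2.39 and 3.17 against 2.25 and 3.01. The replicates of a fraction differed by more than the fractions did (-0.15 ± 0.41), and the sign turned when either Venus-negative replicate 2 (0.25) or replicate 1 of the Venus-positive cells (0.24) was left out. Cdkn2c, dim at -4.40 and -3.69 against -3.55 and -3.33, had a log2 change of 0.61 ± 0.29 (adjusted p = 0.300). It was 0.25 when Venus-negative replicate 1 was left out, 0.96 when replicate 2 of that fraction was, and 0.15 with model-based background correction. All 4 Ink4 genes were brighter in replicate 2 than in replicate 1 in each fraction, by a median of 0.72 among Venus-negative and 0.40 among Venus-positive arrays.

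**Figure D2:**
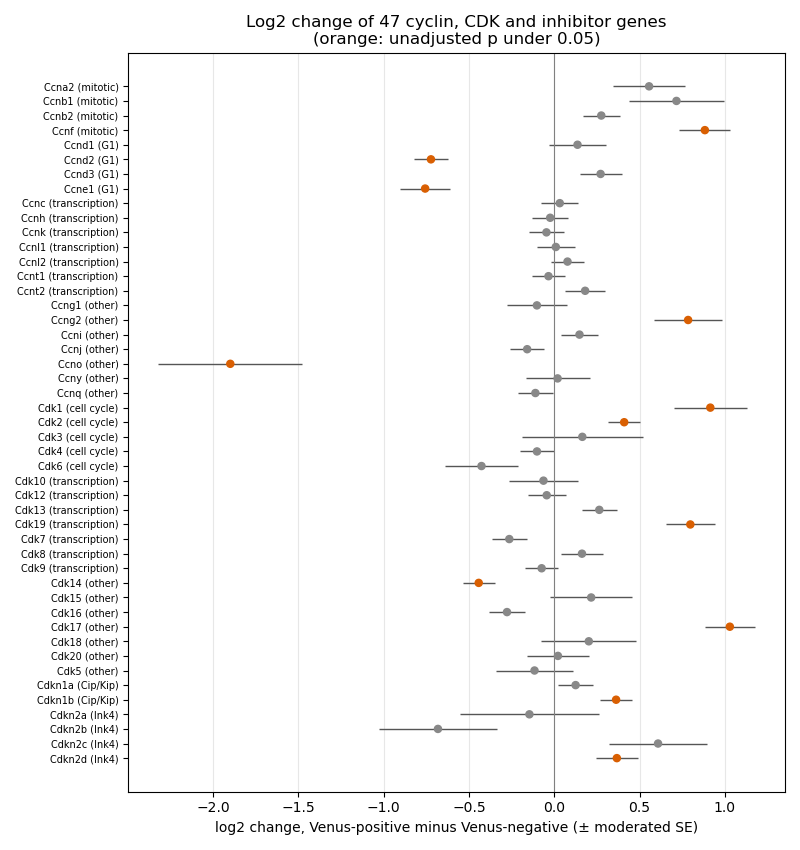
Log2 change of the 47 tested genes (x axis, Venus-positive minus Venus-negative; bars are the moderated SE), grouped by role; orange points have an unadjusted limma p under 0.05. The 8 orange points to the right run from 0.36 (Cdkn1b) to 1.03 (Cdk17) and the 4 to the left from -1.90 (Ccno) to -0.44 (Cdk14).

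Cyclins of transcription and splicing lay close to 0. The 7 measured genes were Ccnc, Ccnh, Ccnk, Ccnl1, Ccnl2, Ccnt1 and Ccnt2, with log2 changes between -0.05 (Ccnk) and 0.18 (Ccnt2), and 0 of them reached an unadjusted p under 0.05 in limma, beside 12.3% higher and 11.4% lower among all features. Ccnt2, a cyclin of the elongation kinase Cdk9, had the largest value, at -2.47 and -2.61 in Venus-negative cells against -2.30 and -2.42 in Venus-positive cells (0.18 ± 0.12, adjusted p = 0.416), and it was 0.00 with model-based background correction. The 95% interval of Ccnk, the cyclin of Cdk12 and Cdk13, ran from -0.34 to 0.25, and that of Ccnh, the cyclin of Cdk7, from -0.32 to 0.28.

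Among the kinases of transcription, Cdk19 had the largest value. Cdk19, a kinase of the Mediator complex, had signals of -0.83 and -0.76 in Venus-negative cells against 0.15 and -0.14 in Venus-positive cells. The fractions lay well apart, with a log2 change of 0.80 ± 0.14, a factor of 1.74 (limma adjusted p = 0.0881). Its paralog Cdk8, which occupies the same place in Mediator with the same cyclin, Ccnc, gave 0.16 ± 0.12 on its brightest probe, -0.49 ± 0.10 on the next and -0.28 ± 0.14 on the dimmest. The direction of Cdk8 therefore cannot be stated, while none of its probes approached the value of Cdk19; the difference was not tested. Ccnc itself stood at 0.03 ± 0.11.

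The other transcription kinases had small values. Cdk7, which activates other CDKs and phosphorylates RNA polymerase II, had a log2 change of -0.26 ± 0.10 on its brightest probe and 0.24 ± 0.13 on a dim second probe. Cdk13 stood at 0.26 ± 0.10, Cdk12 at -0.04 ± 0.11, Cdk9 at -0.07 ± 0.10 and Cdk10 at -0.06 ± 0.20. Ccnq, the cyclin partner of Cdk10, stood at -0.11 ± 0.10, with signals of 2.73 and 2.77 against 2.70 and 2.59. None of these had an unadjusted p under 0.05.

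Ccno had the largest change of all 47 genes. This cyclin is known for the amplification of centrioles in cells that make many cilia. Its signals were 0.63 and -0.26 in Venus-negative cells against -1.36 and -2.06 in Venus-positive cells, all well above background. The replicates were spread widely within each fraction but did not overlap, and the log2 change was -1.90 ± 0.42, a level 3.73-fold lower in Venus-positive cells (limma adjusted p = 0.117). Without each array in turn it ranged from -2.35 to -1.45, and with model-based background correction it was -1.50.

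Among the remaining cyclins, Ccng2, a cyclin associated with withdrawal from the cell cycle, was higher. Its signals were -1.93 and -1.54 in Venus-negative cells against -0.80 and -1.09 in Venus-positive cells, a log2 change of 0.78 ± 0.20 and a factor of 1.72 (limma adjusted p = 0.137). Its paralog Ccng1, a target of p53, stood at 2.39 and 2.67 against 2.28 and 2.58 with overlapping fractions (-0.10 ± 0.18, adjusted p = 0.768). Ccni stood at 0.15 ± 0.11 and Ccnj at -0.16 ± 0.10. Ccny, a membrane-bound cyclin that activates Cdk14 and Cdk16, did not separate the fractions (0.02 ± 0.19).

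Of 7 CDKs that belong neither to the division cycle nor to transcription, Cdk17 had the largest value. Cdk17, a kinase of the PCTAIRE group, had signals of -0.63 and -0.90 in Venus-negative cells against 0.35 and 0.18 in Venus-positive cells. The gap between the fractions was larger than the spread within either, with a log2 change of 1.03 ± 0.15 and a factor of 2.04 (limma adjusted p = 0.0667). The other PCTAIRE kinases had a small or an opposite value. Cdk16 stood at 1.94 and 1.86 against 1.57 and 1.68 (-0.28 ± 0.11, adjusted p = 0.236), and Cdk18 at 3.74 and 3.33 against 4.03 and 3.44, with overlapping fractions (0.20 ± 0.28). Cdk17 minus Cdk16 within an array was -2.57 and -2.76 in Venus-negative cells against -1.22 and -1.50 in Venus-positive cells, a difference of 1.31 between their log2 changes, which was not tested.

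Cdk14, a membrane-associated kinase that phosphorylates the Wnt co-receptor Lrp6, was lower. It had signals of 2.03 and 2.07 in Venus-negative cells against 1.60 and 1.62 in Venus-positive cells, with replicates that nearly coincided in each fraction. The log2 change was -0.44 ± 0.09, a level 1.36-fold lower in Venus-positive cells (limma adjusted p = 0.112), and a second probe gave -0.45 ± 0.11. Cdk5, a kinase best known from neurons, stood at -0.12 ± 0.23 and Cdk20, a kinase of the primary cilium, at 0.02 ± 0.18. Cdk15 cleared background on only 1 Venus-negative array and stood at 0.22 ± 0.24.

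In all, 17 of the 50 genes were measured by more than 1 tested probe. The probes had the same sign for 11 of them and opposite signs for 6 (Ccnj, Ccnl1, Cdk4, Cdk7, Cdk8 and Cdk12), with a median spread of 0.17 between the lowest and highest log2 change of a gene. Ccne1, Cdk1 and Cdk14, which had an unadjusted p under 0.05, had probes that lay within 0.08, 0.04 and 0.01 of each other. The probes of Ccnb1 lay farther apart, at 0.72, 0.24 and 0.21, as did those of Cdk8 and Cdkn1a. Ccnd2, Ccnf, Ccng2, Ccno, Cdk2, Cdk17, Cdk19, Cdkn1b and Cdkn2d had 1 probe each, so no second probe bears on their values.

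**Figure D3:**
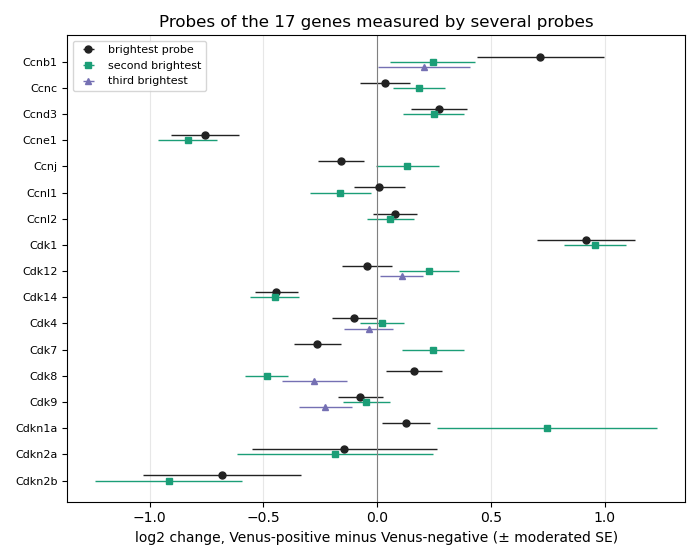
Log2 change (x axis, Venus-positive minus Venus-negative; bars are the moderated SE) of every tested probe of the 17 genes with more than 1, with black circles for the brightest probe, green squares for the second and purple triangles for the next. Probes of Ccne1, Cdk1 and Cdk14 lie together away from 0, while those of Cdk8 span from -0.49 to 0.16.

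Genes that act on cyclins and CDKs or directly below them were read from a separate list of 42, of which 40 were tested. Skp2 had no probe matched to its symbol, and Aurkb did not meet the background criterion. In limma 0 of 40 were higher and 0 lower at an adjusted p under 0.05, and 10 were higher and 1 lower at an unadjusted p under 0.05, which is 25.0% and 2.50% beside 12.3% and 11.4% of all features. The fractions did not overlap for 22 higher and 3 lower genes (55.0% and 7.50%, beside 29.1% and 28.4% of all features), and the median log2 change was 0.21.

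The 4 highest values were those of E2f2, Aurka, Plk1 and Rbl1. E2f2, a transcription factor of the G1/S step, had signals of 0.97 and 1.35 in Venus-negative cells against 1.93 and 2.12 in Venus-positive cells (log2 change 0.86 ± 0.18, limma adjusted p = 0.110). The mitotic kinases Aurka (3.72 and 3.10 against 4.18 and 4.22) and Plk1 (4.90 and 4.22 against 5.30 and 5.32) had log2 changes of 0.78 ± 0.24 and 0.75 ± 0.26. As with Ccnb1 and Cdk1, their Venus-negative replicate 2 was the lowest array. Rbl1, a pocket protein related to Rb1, stood at 0.71 ± 0.18, while Rb1 itself stood at 0.19 ± 0.11.

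Lin54, a subunit of the complex that binds the CHR element, had the lowest adjusted p of the list, at 0.38 and 0.32 against 1.01 and 1.07 (log2 change 0.69 ± 0.10, limma adjusted p = 0.0654). Lin54 was chosen after its values were seen, as were Rb1, Wee1, Cdc25b, Myc, Mycn, Trp53, Cdc25a and E2f1. Wee1, the kinase that restrains Cdk1, and Cdc25b, a phosphatase that releases it, had nearly equal values of 0.59 ± 0.15 and 0.58 ± 0.18. At the lower end stood Gadd45a, a stress-induced gene that can inhibit Cdk1 (1.49 and 1.21 against 0.70 and 0.37, log2 change -0.81 ± 0.18, adjusted p = 0.119), E2f4, a mostly repressive E2F factor (-0.75 ± 0.30, adjusted p = 0.247), E2f3 (-0.16 ± 0.13) and Fbxw7, the ubiquitin ligase subunit that targets cyclin E (-0.10 ± 0.12). Myc, Mycn, Trp53, Cdc25a and E2f1 all had log2 changes within 0.10 of 0.

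**Figure D4:**
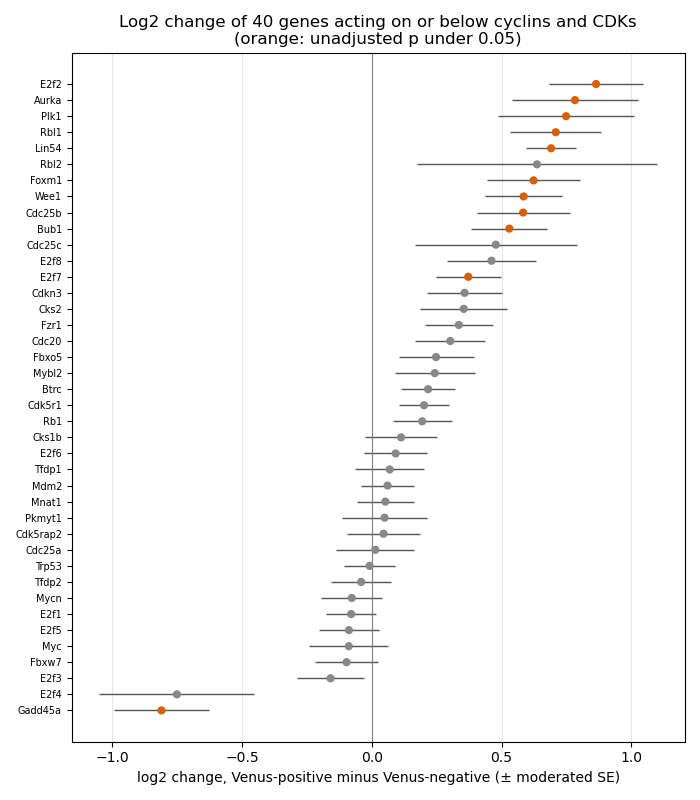
Log2 change (x axis, Venus-positive minus Venus-negative; bars are the moderated SE) of the 40 tested genes that act on or below cyclins and CDKs, in order of their value; orange points have an unadjusted limma p under 0.05. The 10 orange points on the right lie at or below 0.86 (E2f2), and Gadd45a at -0.81 is the orange point on the left.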

How the data were processed

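Per the file headers, the deposited scanner tables came from Feature Extraction 10.10.1.1 and give the intensity of each spot after background subtraction and spatial detrending, unscaled between arrays. The value table deposited by the authors also holds intensity, on a linear scale. It equals the processed signal times 1 constant per array (1.98 to 2.44) with genes left uncentred. The origin of those constants is not given in the sources used here, and the column medians were 38.1 to 42.3.

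Here, control and outlier spots (152 to 196 per array) were left out. From log2 signals the array's own 75th percentile (347 to 429 on the linear scale) was subtracted, and spots of a probe were averaged. Probes were kept where both arrays of 1 or both fractions showed them well above background. Accessions were named through a RefSeq table of GRCm38.p6, which named 27235 of 55681 probes. Each gene took its probe with the highest mean signal. The fit used limma 3.58.1 under R 4.3.3 (functions lmFit and eBayes; 2 residual and 1.8 prior degrees of freedom) with Benjamini-Hochberg adjustment over 23547 features; SE is the moderated standard error. Single probes were fitted over all 27897 kept probes. The fit was run on simulated arrays with independent noise and planted changes larger than most of those of the cyclin, CDK and inhibitor genes. That run therefore does not bear on changes as small as theirs. Model-based background correction (normexp, offset 50) used median spot signals, since the tables hold no mean signal, and was chosen after the files were seen. Other alternatives were median centring, quantile normalization, dim probes kept, a variance trend, the deposited value table, a replicate block, averaged probes and leaving out each array.

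The members and lists were chosen with earlier results of these data known. Values of every array are given for genes with an unadjusted p under 0.05 and an absolute log2 change of at least 0.5, the largest change of each role, and the main cell cycle genes. Of the regulator list, up to 4 genes per direction with the largest change are named.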

Additional observations from a re-analysis of the deposited data

How the results depend on the processing

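Over all features, 183 were called higher and 320 lower. The counts were 591 and 694 with model-based background correction, 731 and 923 with a signal-dependent variance prior, 10 and 19 with dim probes kept, and 0 in each direction without any single array, where fewer samples are fitted. Centring on the median called 351 higher and 375 lower. Of the 47 tested cyclin, CDK and inhibitor genes, 0 were called. Model-based correction called 2 higher (Ccnf and Cdk17) and 1 lower (Ccnd2), beside 591 and 694 of 23547 features. The variance prior called 2 higher and 2 lower, beside 731 and 923 features. In the regulator list each of these settings called 1 of 40 genes higher, Lin54, beside the 591 and 731 of 23547 features higher under them. At an unadjusted p, between 4 and 7 of the cyclin, CDK and inhibitor genes were higher and 3 to 5 lower when an array was left out. The median log2 change of these genes, 0.0323, was 0.000863 with model-based correction, 0.101 with median centring, 0.0597 with quantile normalization, 0.0144 with dim probes kept, 0.0675 with averaged probes and 0.0377 to 0.0975 without an array. The median over all features moved too. It was 0.00294 in the main fit, -0.0210 with model-based correction, 0.0719 with median centring and 0.0216 with quantile normalization. With dim probes kept it was 0, with averaged probes -0.000435, and without an array -0.0210 to 0.0300. Median centring moved every feature by the same amount. Replicate numbers are not stated to mark a shared culture, although same-numbered arrays share a slide row and their deviations correlated at 0.413 across features. With the replicate block, 390 features were higher and 544 lower, and of the cyclin, CDK and inhibitor genes 1 was called higher (Cdk17, adjusted p = 0.0485) and 1 lower (Ccno, adjusted p = 0.0429). Apart from the uniform move under median centring, the cause of these shifts was not tested. The signals of Cdk3 and Cdk15 were not well above background on 1 array each.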
